A study of Mus musculus with 8 samples.

Results

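The genes of the TGF-β signalling core were followed in tumor-associated macrophages (TAMs). The set held 10 of the 26939 genes in the count tables and was chosen by name. It comprised the ligands Tgfb1, Tgfb2 and Tgfb3, the signalling receptors Tgfbr1 and Tgfbr2, the signal transducers Smad2, Smad3 and Smad4, the inhibitory Smad7, and Tgfbi, an extracellular matrix gene named for its induction by TGF-β. TAMs were sorted at day 21 as viable cells carrying CD45, CD11b and F4/80 but no Gr-1, from EO771 tumors, a mouse breast cancer line injected into the mammary fat pad of female C57BL/6J mice of 8 to 14 weeks, and their poly-A mRNA was sequenced in bulk. Each of 4 groups had 2 libraries, namely WT control, WT αMARCO, Unc93b1 3d/3d control and Unc93b1 3d/3d αMARCO. Unc93b1 3d/3d mice carry a mutant form of the chaperone that delivers endosomal Toll-like receptors, and lack functional TLR3, TLR7 and TLR9 in all their cells. αMARCO is a rat IgG1 antibody (clone ED31) against the macrophage scavenger receptor MARCO, injected intravenously at 100 µg on days 3, 6, 9 and 12. The labels call the control mice untreated or PBS-injected, whereas the methods name an isotype antibody, so what the controls received is not settled here. One control library of the mutant has a genotype field that differs from its own title, and the title was followed. Each control library was made from several pooled mice, and for the αMARCO libraries pooling is not stated. The p-values below measure the spread between these libraries.

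TGF-β ligands are made as precursors that are cut by furin-type proteases and secreted in a latent complex. In this complex a latency peptide holds the mature dimer and is tethered to latent TGF-β binding proteins in the matrix or to anchor proteins on the cell surface. Integrins containing the αv chain pull the ligand free by binding an Arg-Gly-Asp (RGD) sequence in the latency peptide. The free ligand binds the type II receptor TGFBR2, which recruits and activates the type I receptor TGFBR1. TGFBR1 then phosphorylates SMAD2 and SMAD3, which enter the nucleus with SMAD4, while SMAD7 is induced by the pathway and shuts the receptor down. In macrophages the pathway is known for restraining inflammatory activation and for maintaining the identity of tissue-resident cells such as microglia.

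The RGD site is shown because the ligands differ in it and integrin genes that act on it changed in these data. In the GENCODE annotation of GRCm38, the coding sequence of Tgfb1 (390 residues) and that of Tgfb3 (412 residues) each held 1 RGD, whereas that of Tgfb2 (442 residues) held 0. The Tgfb1 site lay at residues 244 to 246 in exon 5 (chr7:25697133-25697159, plus strand) and the Tgfb3 site at residues 261 to 263, also in exon 5 (chr12:86062156-86062182, minus strand). The codons for Arg, Gly and Asp are in capitals, with 9 coding bases on either side.
Tgfb1: cccaaacgtCGGGGCGACctgggcacc
Tgfb3: gaccatggcCGTGGAGACctggggcgt

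The libraries held 15182618 to 26411936 counts, and a floor of 3 counts corresponded to 0.117 to 0.205 CPM (counts scaled to library totals adjusted by TMM factors). Replicates were close in 3 groups, where 14 to 39 of 9054 genes with a mean of at least 10 CPM lay 2-fold or more apart. In Unc93b1 3d/3d αMARCO, 919 of these genes (10.2%) did. For the set, results on that group are therefore also given without each of its libraries where this changed a call. The summed level of 10 macrophage markers was 9509 to 13936 CPM in all libraries, with no marker at 0. Markers of other cells differed by group. The sum of 10 T cell markers was 118 and 134 CPM in WT control and 5.82 to 24.7 CPM elsewhere, and that of 6 mature dendritic cell markers was 427 and 835 CPM in WT control and 57.8 to 110 CPM elsewhere. Fibroblast and stromal markers (8 genes) summed to 91.4 and 113 CPM in WT control, 27.3 and 39.9 CPM in WT αMARCO, 160 and 192 CPM in Unc93b1 3d/3d control, and 81.1 and 170 CPM in Unc93b1 3d/3d αMARCO. Unc93b1 itself was at 718 to 965 CPM in the WT and 539 to 659 CPM in the mutant libraries. For the mutant against WT its log2 fold change was −0.58 in controls (edgeR adjusted p = 0.0125, called). Under αMARCO it was −0.29 (edgeR adjusted p = 0.71, not called). These values give no test of the labels, since the allele alters the protein and does not delete the gene.

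The genes differed widely in level. Per kilobase of gene model, Tgfbi was highest with a mean over the 8 libraries of 983 CPM per kb, above 99.9% of the genes with a count. Tgfb1 followed at 84.9 CPM per kb and was the dominant ligand, with 93.3 to 99% of the summed ligand level per length. The receptors stood at 28.3 CPM per kb for Tgfbr1 and 20.5 CPM per kb for Tgfbr2. Of the SMADs, Smad4 (19.0 CPM per kb), Smad7 (18.6 CPM per kb) and Smad2 (14.5 CPM per kb) were above Smad3 (7.23 CPM per kb). Tgfb3 reached 2.42 CPM per kb and Tgfb2 0.0332 CPM per kb. The ranges over libraries of Tgfbr1 and Tgfbr2 overlapped, as did those of Smad4, Smad7 and Smad2 with one another and with Tgfbr2, so these neighbours were not separated beyond the spread between libraries.

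**Figure D1:**
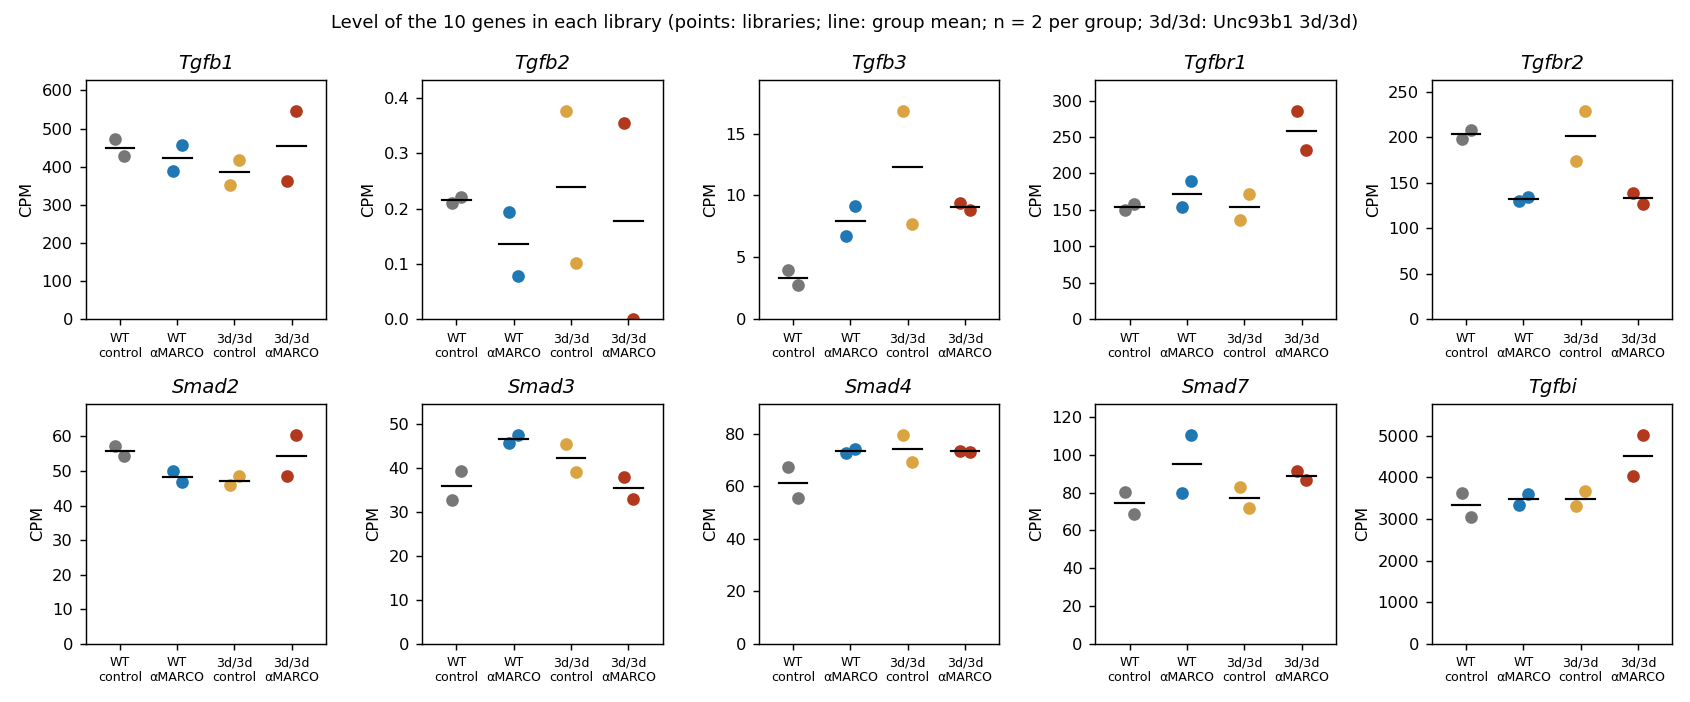
Level of each gene in CPM (vertical axis, linear and starting at 0, a separate scale for each gene) in the 2 libraries of each group (points), with the group mean as a line. Tgfbr2 is lower in all 4 αMARCO libraries than in all 4 control libraries, Tgfb3 is lowest in the 2 WT control libraries, and Tgfb2 is at 0 to 8 counts throughout.

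Tgfb1 encodes the ligand that immune cells chiefly make. It was at 472 and 428 CPM in WT control, 388 and 457 CPM in WT αMARCO, 353 and 418 CPM in Unc93b1 3d/3d control, and 361 and 546 CPM in Unc93b1 3d/3d αMARCO. These groups overlapped, except that both mutant controls lay below both WT controls. No comparison passed the test, and its log2 fold change was −0.09 (SE 0.098) for αMARCO in WT, 0.25 (SE 0.29) for αMARCO in the mutant, −0.20 (SE 0.11) for the mutant against WT in controls and 0.11 (SE 0.27) under αMARCO. The value in the mutant under αMARCO depended on the library. Against its controls, replicate 2 alone gave a log2 fold change of 0.51 (edgeR adjusted p = 0.00567) and replicate 1 alone gave −0.07 (edgeR adjusted p = 0.905). Against WT αMARCO they gave 0.36 and −0.20, neither called at the fold threshold of 0.5, and the difference of effects (0.33 with both) was 0.59 (edgeR adjusted p = 0.0129) without replicate 1 and 0.04 (edgeR adjusted p = 0.941) without replicate 2.

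Tgfb2, the ligand of epithelial and neural tissue, had 4 and 4 counts in WT control, 4 and 2 in WT αMARCO, 6 and 2 in Unc93b1 3d/3d control, and 8 and 0 in Unc93b1 3d/3d αMARCO. It lay at or near the floor in every library and was not tested.

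Tgfb3, a ligand best known from palate and lung development, rose in WT TAMs with αMARCO and was also higher in mutant than in WT control TAMs. It was at 3.95 and 2.77 CPM in WT control (75 and 50 counts) and 6.76 and 9.16 CPM in WT αMARCO (140 and 234 counts). In the mutant it was at 16.8 and 7.71 CPM in control (268 and 152 counts) and 9.37 and 8.82 CPM in αMARCO (211 and 129 counts). All 6 other libraries thus lay above both WT control libraries, and the mutant groups overlapped each other. The log2 fold change was 1.24 (SE 0.26, edgeR quasi-likelihood test, adjusted p = 0.0052) for αMARCO in WT and 1.88 (SE 0.40, adjusted p = 0.0204) for the mutant against WT in controls. Both comparisons share the WT control libraries. In 1 model of all 8 libraries neither passed (edgeR adjusted p = 0.15 and 0.0594).
For αMARCO in the mutant the log2 fold change was −0.41 (SE 0.42, edgeR adjusted p = 0.833), and the difference of the αMARCO effect between the genotypes was −1.65 (SE 0.54, edgeR adjusted p = 0.318), which did not pass. Without either mutant αMARCO library these stayed uncalled, at −0.46 and −0.36 for αMARCO in the mutant and −1.71 and −1.58 for the difference, whereas without mutant control replicate 1 the first was 0.25. Over all single libraries left out, the difference of the αMARCO effect ranged from −2.11 to −0.99. The Tgfb3 calls were sensitive to single libraries. The call in WT was lost without αMARCO replicate 2 (log2 fold change 1.02, edgeR adjusted p = 0.0654). The call between the controls was lost without WT control replicate 1 (2.14, edgeR adjusted p = 0.0535) or without WT control replicate 2 (1.63, edgeR adjusted p = 0.108), and without mutant control replicate 1 its log2 fold change fell to 1.21. Tgfb3 also belongs to genes that the study displayed for the controls of these samples, so its selection there is not independent.
Other measurements are set beside Tgfb3 here, and not all of them moved with it. The platelet chemokine gene Ppbp was at 11.6 and 8.53 CPM in WT control and 19.4 to 59.9 CPM in the other libraries. Of the other 5 platelet markers, Itga2b was at 0.942 to 2.37 CPM without such a rise, and 4 were below 1 CPM in every library and not tested. Stromal markers were higher in mutant control than in WT control but lower in WT αMARCO. Their part in the result was not tested. Tgfb3 (chr12:86056745-86079041, minus strand, GRCm38) overlaps Ttll5 and 2 further genes on the opposite strand. Ttll5 was at 9.01 and 10.9 CPM in WT control, 8.31 and 8.30 CPM in WT αMARCO, 11.5 and 10.5 CPM in mutant control and 9.77 and 5.33 CPM in mutant αMARCO, and the other two genes had at most 6 counts. The part of these genes in the Tgfb3 values was not tested. Whether reads were counted by strand is not given in the sources used here.

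As a share of the 3 ligand transcripts per length, Tgfb3 made up 1.23 and 0.956% in WT control, 2.53 and 2.90% in WT αMARCO, 6.62 and 2.67% in Unc93b1 3d/3d control, and 3.72 and 2.35% in Unc93b1 3d/3d αMARCO. Tgfb1 therefore remained the main ligand transcript where Tgfb3 was highest.

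Tgfbr2, the type II receptor that binds the ligand first, fell in WT TAMs with αMARCO. It was at 198 and 209 CPM in WT control and 130 and 135 CPM in WT αMARCO. In the mutant it was at 174 and 229 CPM in control and 139 and 127 CPM in αMARCO. All 4 αMARCO libraries lay below all 4 control libraries, and within a treatment the genotypes overlapped. The log2 fold change was −0.61 (SE 0.077, edgeR adjusted p = 0.000494) in WT. In the mutant it was −0.59 (SE 0.24, edgeR adjusted p = 0.823), which did not pass with both αMARCO libraries. With either one alone it did, at −0.66 (edgeR adjusted p = 0.00189) with replicate 2 and −0.51 (edgeR adjusted p = 0.037) with replicate 1. In 1 model of all 8 libraries the WT value was −0.62 and did not pass (edgeR adjusted p = 0.112). The difference of the αMARCO effect between genotypes was 0.03 (SE 0.24, edgeR adjusted p = 0.951).
Between the controls of both genotypes its log2 fold change was 0.00 (SE 0.13, edgeR adjusted p = 0.988). Tgfbr2 was at 174 and 229 CPM where T cell markers summed to 24.7 and 12.0 CPM, and at 198 and 209 CPM where they summed to 118 and 134 CPM. Mature dendritic cell markers summed to 110 and 78.2 CPM in mutant control, where Tgfbr2 was at 174 and 229 CPM. In WT αMARCO, where Tgfbr2 was at 130 and 135 CPM, T cell markers summed to 12.7 and 19.3 CPM and mature dendritic cell markers to 60.3 and 79.2 CPM, against 835 and 427 CPM in WT control. Their part in the Tgfbr2 value was not tested. In these bulk samples, fewer cells of a type and less RNA per cell cannot be told apart. The genes with the pattern most like Tgfbr2 were Dek, a chromatin protein of dividing cells, and Cep55, needed for the last step of cell division (Pearson r of log2 CPM 0.971 and 0.969 over 8 libraries, of 9053 genes). For Tgfb3 they were Ppp1r3b, a glycogen-targeting phosphatase subunit, and Cyth1, an ARF exchange factor (0.944 and 0.938, of 9054 genes). The 8 points share 4 groups, and the coefficients are a description.

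Tgfbr1, the type I receptor kinase, was highest in the mutant with αMARCO. It was at 151 and 158 CPM in WT control and 154 and 190 CPM in WT αMARCO, which overlapped. In the mutant it was at 136 and 171 CPM in control and 286 and 232 CPM in αMARCO, where both treated libraries lay above all others. The log2 fold change was 0.16 (SE 0.098, edgeR adjusted p = 0.241) in WT and 0.76 (SE 0.25, edgeR adjusted p = 0.823) in the mutant. The WT value ranged from 0.0099 to 0.29 when 1 library was left out. The mutant value did not pass with both αMARCO libraries and passed with either one alone, at 0.60 (edgeR adjusted p = 0.0013) with replicate 2 and 0.92 (edgeR adjusted p = 1.83e-06) with replicate 1. Such fits take the spread of the lone library from the other group. The mutant against WT under αMARCO gave 0.61 (SE 0.22, edgeR adjusted p = 0.709), and the difference of effects was 0.61 (SE 0.26, edgeR adjusted p = 0.324). Both passed without mutant αMARCO replicate 2, at 0.76 (edgeR adjusted p = 9e-05) and 0.78 (edgeR adjusted p = 0.0442), and without replicate 1 both were 0.43, under the fold threshold of 0.5 (edgeR adjusted p = 0.00101 and 0.0855).

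The ratio of the receptor transcripts per length set these genes side by side. Tgfbr1 over Tgfbr2 was 0.954 and 0.949 in WT control and 0.984 and 0.937 in Unc93b1 3d/3d control. With αMARCO it was 1.48 and 1.76 in WT TAMs and reached 2.58 and 2.29 in mutant TAMs. The 4 control libraries lay within 0.937 to 0.984 and the 4 αMARCO libraries within 1.48 to 2.58, with the mutant above WT. The ratio was formed after the values had been seen and is given without a test.

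**Figure D2:**
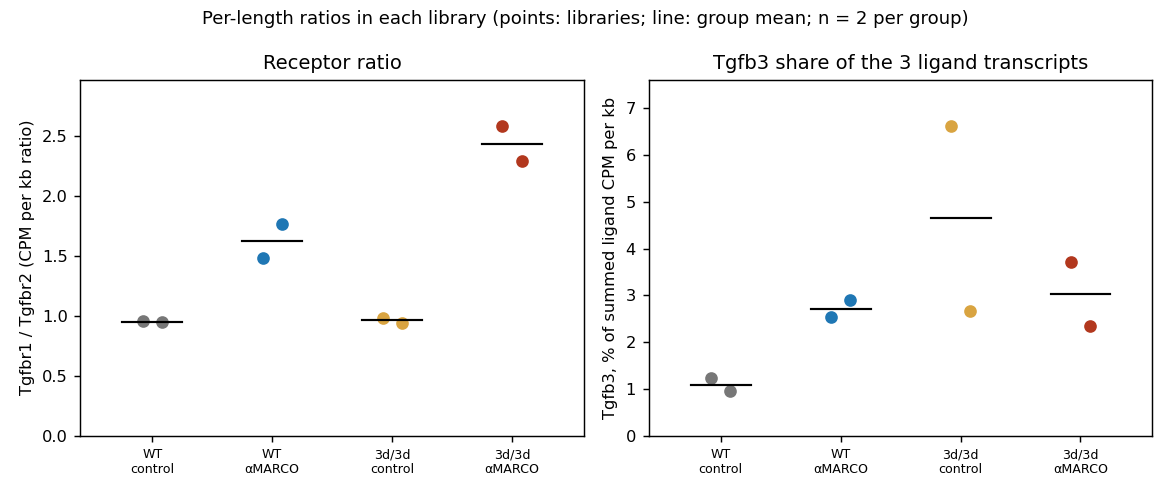
Left, Tgfbr1 over Tgfbr2 as a ratio of CPM per kb; right, Tgfb3 as a percentage of the summed CPM per kb of the 3 ligand transcripts; points are libraries (2 per group) and lines are group means. The control libraries sit at 0.937 to 0.984 on the left, all below the αMARCO libraries at 1.48 to 2.58.

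The bases before the receptor start sites are shown because the receptor transcripts differed in the ratio just given. They come from RefSeq (GRCm38.p6), which gave entries for 6 of the 10 genes and listed 2 starts for Tgfbr1. The 250 bases before each start were searched on both strands for CAGACA, the CAGA box that SMAD3 and SMAD4 bind, for the SMAD palindrome GTCTAGAC and for the AP-1 motif TGANTCA. Among 32851 promoters of the same length, 17.1% held CAGACA, 0.167% GTCTAGAC and 6.75% TGANTCA. The Tgfbr2 window (chr9:116175364-116175613, minus strand) and that of the first Tgfbr1 start (chr4:47352972-47353221, plus strand) held none of these letters. The second Tgfbr1 start (chr4:47385966-47386215, plus strand) had 1 CAGACA, in capitals, beginning 203 bases before it.
Tgfbr2: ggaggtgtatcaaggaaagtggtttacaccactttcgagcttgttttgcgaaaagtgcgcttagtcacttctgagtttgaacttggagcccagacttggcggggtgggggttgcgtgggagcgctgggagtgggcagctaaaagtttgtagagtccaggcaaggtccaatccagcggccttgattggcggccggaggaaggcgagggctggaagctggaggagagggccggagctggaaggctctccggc
Tgfbr1, first start: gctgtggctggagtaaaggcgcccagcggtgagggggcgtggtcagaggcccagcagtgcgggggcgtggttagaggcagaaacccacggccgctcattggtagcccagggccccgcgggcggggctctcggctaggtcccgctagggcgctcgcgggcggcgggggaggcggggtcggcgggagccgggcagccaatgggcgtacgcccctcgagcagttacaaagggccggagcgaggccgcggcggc
Tgfbr1, second start: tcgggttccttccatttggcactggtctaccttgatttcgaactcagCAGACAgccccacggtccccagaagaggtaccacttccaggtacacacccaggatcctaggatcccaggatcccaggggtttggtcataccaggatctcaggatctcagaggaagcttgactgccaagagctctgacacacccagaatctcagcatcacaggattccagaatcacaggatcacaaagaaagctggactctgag

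The receptor-activated SMADs differed less. Smad3 was at 32.7 and 39.3 CPM in WT control and 45.7 and 47.4 CPM in WT αMARCO. In the mutant it was at 45.5 and 39.2 CPM in control and 37.9 and 32.9 CPM in αMARCO. With αMARCO both libraries were above the controls in WT and below them in the mutant. The log2 fold change was 0.37 (SE 0.11, edgeR adjusted p = 0.022) in WT, which met the p threshold but not the fold threshold of 0.5, and −0.24 (SE 0.22, edgeR adjusted p = 0.824) in the mutant, where leaving out 1 library gave −0.36 to −0.13. The difference of effects, −0.61 (SE 0.24, edgeR adjusted p = 0.318), did not pass. The WT value was 0.51 and called without WT control replicate 2 (edgeR adjusted p = 0.000792), with a range of 0.24 to 0.51 over the libraries left out. The difference of effects was −0.74 (edgeR adjusted p = 0.00581) without mutant αMARCO replicate 1 and −0.49 (edgeR adjusted p = 0.161) without replicate 2. Against WT αMARCO, the mutant value of −0.38 was −0.51 and called without replicate 1 (edgeR adjusted p = 0.000267) and −0.27 without replicate 2.
Smad2 was at 57.3 and 54.5 CPM in WT control, 49.9 and 46.8 CPM in WT αMARCO, 45.8 and 48.6 CPM in Unc93b1 3d/3d control, and 48.5 and 60.3 CPM in Unc93b1 3d/3d αMARCO. WT controls lay above both WT αMARCO and mutant control libraries, with log2 fold changes of −0.21 (SE 0.089, edgeR adjusted p = 0.0946) and −0.23 (SE 0.099, edgeR adjusted p = 0.144). The difference of the αMARCO effect, 0.42 with both mutant αMARCO libraries, was 0.56 and called without replicate 1 (edgeR adjusted p = 0.00888) and 0.29 without replicate 2. Smad3 over Smad2 per length was 0.365 and 0.462 in WT control, 0.587 and 0.649 in WT αMARCO, 0.636 and 0.516 in mutant control TAMs and 0.5 and 0.349 in mutant TAMs with αMARCO. The WT αMARCO and mutant control libraries thus lay above the WT control and the mutant αMARCO libraries in this ratio, which was also formed after the values had been seen.

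Smad4, the partner shared with BMP signalling, was at 67.2 and 55.5 CPM in WT control and at 69.2 to 79.4 CPM in all other libraries. It was above WT control without overlap but passed in no comparison, with log2 fold changes of 0.26 (SE 0.098, edgeR adjusted p = 0.0643) for αMARCO in WT and 0.29 (SE 0.12, edgeR adjusted p = 0.122) for the mutant controls. Leaving out 1 library gave 0.12 to 0.40 for the former and 0.15 to 0.43 for the latter. Smad7, the feedback inhibitor, was at 80.4 and 68.5 CPM in WT control, 79.9 and 110 CPM in WT αMARCO, 82.8 and 72.1 CPM in Unc93b1 3d/3d control, and 91.5 and 86.7 CPM in Unc93b1 3d/3d αMARCO. Its log2 fold changes for αMARCO, 0.35 (SE 0.15, edgeR adjusted p = 0.123) in WT and 0.22 (SE 0.21, edgeR adjusted p = 0.828) in the mutant, did not pass. In WT the value passed without αMARCO replicate 1 (0.56, edgeR adjusted p = 0.0139), and it ranged from 0.11 to 0.56 over the libraries left out. In the mutant it was 0.17 and 0.27 without αMARCO replicates 1 and 2.

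Tgfbi, the matrix adhesion protein and the most abundant transcript of the set, was at 3628 and 3054 CPM in WT control, 3341 and 3604 CPM in WT αMARCO, 3304 and 3676 CPM in Unc93b1 3d/3d control, and 4029 and 5009 CPM in Unc93b1 3d/3d αMARCO. The mutant αMARCO libraries lay above all others, and the other groups overlapped. The log2 fold change was 0.06 (SE 0.12, edgeR adjusted p = 0.736) in WT and 0.39 (SE 0.31, edgeR adjusted p = 0.823) in the mutant. Without mutant αMARCO replicate 1 the latter was 0.53 (edgeR adjusted p = 0.0134), and without replicate 2 it was 0.23 (edgeR adjusted p = 0.643). Against WT αMARCO these were 0.52 (edgeR adjusted p = 0.00274) and 0.24 (edgeR adjusted p = 0.343).

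Counted over the set, 2 of 9 tested genes were called for αMARCO in WT, Tgfb3 higher and Tgfbr2 lower, beside 20.7% of 15630 genes (adjusted p of at most 0.05 and a log2 fold change of at least 0.5 in size). The median log2 fold change of the 9 was 0.16, beside −0.01 over all genes, and 5 of the 9 did not overlap between the groups, beside 70.8% of all genes. For the mutant against WT in controls, 1 of 9 was called (Tgfb3 higher), beside 13% of 15600 genes, and 4 did not overlap, beside 63.1%. For αMARCO in the mutant, edgeR called 0 of 9, beside 0% of 15428 genes, and 5 did not overlap, beside 39%. At an unadjusted p under 0.05 there were 2 of the 9 and 744 of all genes, and DESeq2 called 0 and 60. For the mutant against WT under αMARCO, edgeR called 0 of 9, beside 0% of 15722 genes, and 3 did not overlap, beside 43.7%. Here 1 of the 9 and 1076 of all genes had an unadjusted p under 0.05, and DESeq2 called 0 and 215. For the difference of the αMARCO effect between genotypes, edgeR called 0 of 9, beside 0% of 16620 genes, with 3 of the 9 and 2549 of all genes at an unadjusted p under 0.05 and 0 and 208 called by DESeq2. Without mutant αMARCO replicate 1 these last 3 comparisons called 4, 2 and 3 of the 9 and 5500, 6366 and 6440 of all genes, and without replicate 2 they called 2, 1 and 1 of the 9 and 571, 1252 and 612 of all genes.

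**Figure D3:**
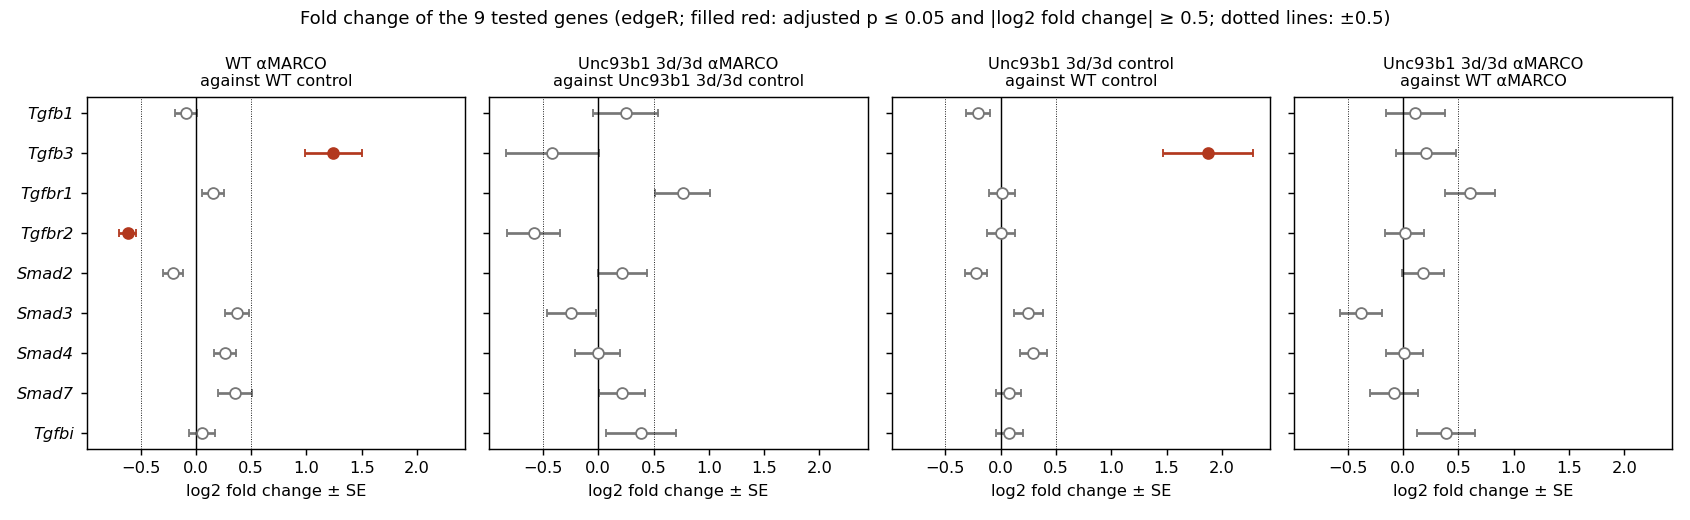
Log2 fold change with its SE (horizontal axis) of the 9 tested genes in the 4 comparisons of 2 against 2 libraries. The SE was derived from the F statistic of each test. Filled red points passed an adjusted p of 0.05 with a log2 fold change of at least 0.5 in size. Tgfb3 (1.24) and Tgfbr2 (−0.61) pass for αMARCO in WT, Tgfb3 (1.88) passes between the controls, and no gene passes in the comparisons that include Unc93b1 3d/3d αMARCO.

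The wider pathway was read from 98 further genes in 7 lists. For αMARCO in WT, 8 of the 88 tested rose and 15 fell (26.1% called, beside 20.7% of all genes), with a median log2 fold change of 0.00. For the mutant against WT in controls, 14 of 87 were higher and 10 lower (27.6%, beside 13% of all genes), with a median of 0.07. Both comparisons rest on the same WT control libraries. In 1 model of all 8 libraries they called 2 and 6 pathway genes, so most calls named below were not made there. In the comparisons within the mutant and under αMARCO, edgeR called 0 of 86 each, where the unadjusted p was under 0.05 for 9 and 19 genes and DESeq2 called 4 and 9.

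More genes for latency and activation fell than rose in WT with αMARCO, where 6 of 15 were lower and 1 higher (median −0.39). Over all genes, 1843 were lower and 1393 higher in that comparison, and the lists were not tested against this split. Itgb8, the β chain of the integrin αvβ8 that binds the RGD sites printed above, went from 3.43 and 4.38 CPM to 0.483 and 0.235 CPM (log2 fold change −3.45, SE 0.45, edgeR adjusted p = 0.000593). The latent TGF-β binding proteins Ltbp1 (12.9 and 15.6 to 5.51 and 4.31 CPM, −1.54) and Ltbp4 (12.0 and 12.4 to 4.20 and 4.78 CPM, −1.44) fell, as did Lrrc32, the GARP anchor of latent TGF-β (−1.47), and the gelatinase Mmp9 (−0.71). Furin, the protease that cuts the precursors, rose from 207 and 200 CPM to 312 and 357 CPM (0.72, edgeR adjusted p = 0.00042).
In the controls, 2 of the 15 were higher in the mutant and 2 lower (median 0.25). Itgb8 was lower there too, at 1.88 and 1.17 CPM (−1.35, edgeR adjusted p = 0.0348), and so was Mmp9 (−1.40), whereas Furin (0.66) and the integrin chain Itgb5 (0.67) were higher. In the mutant αMARCO libraries Itgb8 was at 0.266 and 0.0684 CPM, the latter below the floor. Ltbp1 was at 17.0 CPM in replicate 1 and 5.33 CPM in replicate 2 of that group. Mature dendritic cell and T cell markers were highest in WT control, as Itgb8 and Lrrc32 were, and stromal markers were lowest in WT αMARCO, as Ltbp1 and Ltbp4 were by mean. Of 4 tested neutrophil markers, 2 were called lower and 0 higher for αMARCO in WT (median −2.79), where Mmp9 fell. The sum of 7 neutrophil markers went the other way, from 302 and 293 CPM in WT control to 359 and 363 CPM in WT αMARCO. Csf3r carried most of it, at 262 and 279 CPM in WT control and 355 and 360 CPM in WT αMARCO (log2 fold change 0.40, not called). Between the controls, 0 of 5 tested neutrophil markers were called (median −0.85). The part of all these markers in these results was not tested.

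Among co-receptors and receptor regulators, 1 of 16 was lower for αMARCO in WT (median 0.13). This was Tgfbr3, the ligand-presenting co-receptor betaglycan, which went from 11.2 and 9.53 CPM to 5.60 and 4.19 CPM (−1.09, edgeR adjusted p = 0.00449). In the controls 3 of 16 were higher in the mutant and 1 lower (median 0.15). Tgfbr3 was higher, at 17.9 and 17.1 CPM (0.77), as were Dab2, an endocytic adaptor (0.84), and the ubiquitin ligase Wwp1 (0.55), whereas Acvrl1, the type I receptor ALK1, was lower (−0.68). In mutant αMARCO Tgfbr3 was at 16.8 and 5.54 CPM, where the stromal markers summed to 170 and 81.1 CPM. Those markers were also lowest in WT αMARCO and highest in mutant control, as Tgfbr3 was by mean, and their part in its values was not tested.
Among other SMADs and SMAD cofactors, 4 of 11 rose for αMARCO in WT and none fell (median 0.39). Ski (0.53), Skil (0.60) and Tgif1 (0.67) encode corepressors of SMAD complexes and Crebbp (0.69) a coactivator. Crebbp went from 67.1 and 70.4 CPM to 109 and 112 CPM. In the controls only Ski of the 11 passed, and it was higher in the mutant (0.54). Of the activin and BMP branch, the activin receptor Acvr2a was the 1 called gene in each comparison and was higher (0.64 of 9 tested, and 0.52 of 8 tested). None of the 8 non-SMAD kinases was called in either comparison.

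Target genes of TGF-β moved in both directions. For αMARCO in WT, 2 of 19 rose and 4 fell (median −0.10). Vegfa, the angiogenic growth factor, rose from 135 and 155 CPM to 273 and 343 CPM (1.08, edgeR adjusted p = 0.000355), and Xylt1, a xylosyltransferase, rose by 0.73. Itgae, the αE integrin chain of tissue T cells and dendritic cells, fell (−1.95), with Id1 (−0.96) and Bhlhe40 (−0.87), both transcriptional regulators, and Angptl4 (−0.78), an inhibitor of lipoprotein lipase. In the same comparison 10 of 10 T cell markers (median −3.01) and 4 of 5 tested mature dendritic cell markers (median −3.60) fell, and their part in the Itgae value was not tested. In the controls 1 of 19 was higher in the mutant and 5 were lower (median −0.01). Pmepa1, a feedback inhibitor of the pathway, was at 3.69 and 2.77 CPM in WT and 7.59 and 11.1 CPM in the mutant (1.55, edgeR adjusted p = 0.00687), and at 11.8 and 20.1 CPM in mutant αMARCO against 3.00 and 3.01 CPM in WT αMARCO. Id3 (−1.84), Angptl4 (−1.81), Id1 (−0.93), Gadd45b (−0.82) and Bhlhe40 (−0.60) were lower. Between the controls, 10 of 10 T cell markers (median −2.75) and 2 of 5 tested mature dendritic cell markers (median −2.75) were lower too. Their part in the values of these target genes was not tested.

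Genes that depend on TGF-β in microglia and other macrophages gave the largest share of calls between the controls, 8 of 10 tested, of which 6 were higher in the mutant and 2 lower (median 0.90). Gas6, a bridging ligand for uptake of dying cells, was at 53.4 and 52.4 CPM in WT and 249 and 303 CPM in the mutant (2.40, SE 0.12, edgeR adjusted p = 4.08e-06). The microglial genes Fcrls (2.58), Tmem119 (1.88) and Gpr34 (1.73) were higher, whereas Olfml3 (−1.33) and Pros1 (−1.16), another bridging ligand, were lower. Tmem119 was at 13.4 and 6.32 CPM in WT control, 32.9 and 39.2 CPM in mutant control, 16.9 and 20.3 CPM in WT αMARCO and 79.2 and 109 CPM in mutant αMARCO. Fcrls went the other way in the mutant, from 314 and 377 CPM in control to 144 and 137 CPM in αMARCO. Gas6 did too, and was at 130 and 140 CPM in mutant αMARCO. The log2 fold changes for αMARCO in the mutant were 1.39 for Tmem119, −1.29 for Fcrls and −1.02 for Gas6. In that comparison 0 of the 10 were called (median −0.0008). For αMARCO in WT, 4 of 10 were lower and none higher (median −0.28), among them Olfml3 (−1.49), Pros1 (−1.27) and the complement gene C1qa (−0.73). Markers of nonclassical monocytes (8 genes) summed to 1481 and 1502 CPM in WT control and 495 and 637 CPM in mutant control. Of the 8, 3 were lower in the mutant, and Cd300e, at a mean of 587 CPM in WT control and 8.8 CPM in mutant control, carried most of the change in the sum. Also between the controls, 10 of 10 T cell markers were lower in the mutant, and 3 of 8 stromal and 2 of 6 classical monocyte markers were higher. For αMARCO in WT, 10 of 10 T cell, 4 of 5 tested mature dendritic cell and 4 of 8 stromal markers fell. The part of these markers in either comparison was not tested.

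**Figure D4:**
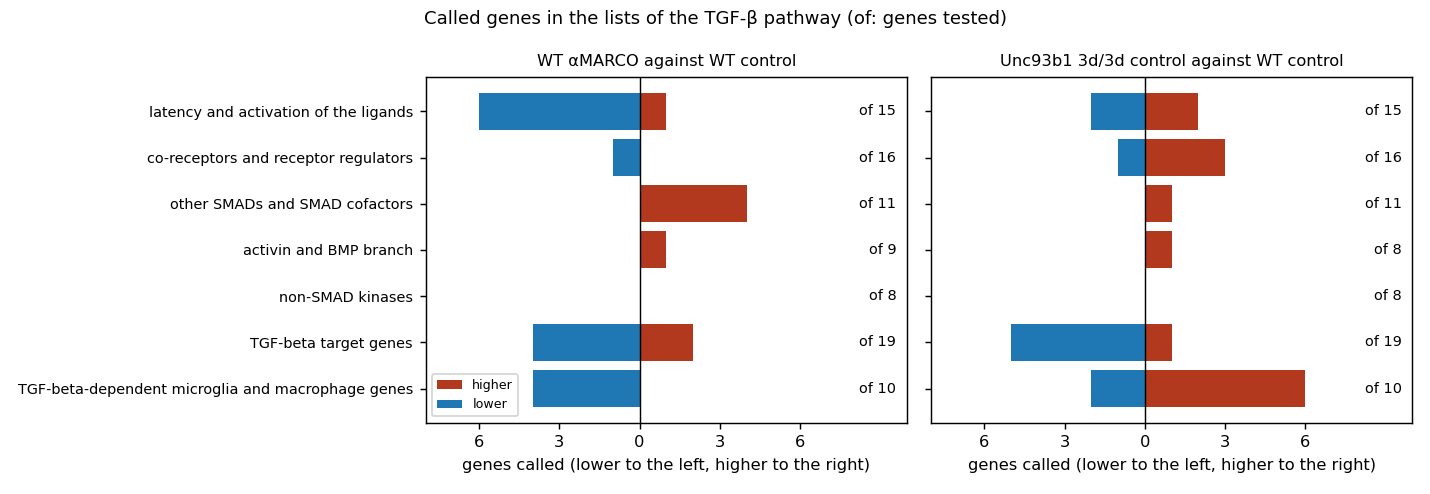
Number of genes called (horizontal axis; lower to the left in blue, higher to the right in red) in each of the 7 pathway lists, with the number tested at the right of each panel, for the 2 comparisons against WT control that gave calls. Latency and activation genes lean to lower (6 against 1) for αMARCO in WT, and the TGF-β-dependent macrophage genes to higher (6 against 2) in the mutant controls. Over all genes, 1843 were lower and 1393 higher for αMARCO in WT, and 1027 lower and 998 higher in the mutant controls.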

How the data were processed

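TAM mRNA from 8 libraries was analysed. The authors trimmed reads with fastp, aligned them to GRCm38 (HISAT2 2.0.5) and obtained gene counts from featureCounts 1.5.0 (submitters' processing notes). The deposited raw counts carry no normalization. They stand in 3 tables of 4 libraries, which were joined by gene identifier. Of 95230 counts present in more than 1 table, 0 differed. The deposited normalized counts, FPKM, fold changes and p-values were not used. Here counts were filtered (filterByExpr), TMM-normalized and tested per comparison with edgeR 4.0.16 (quasi-likelihood, Benjamini-Hochberg over all genes tested, R 4.3.3) at an adjusted p of 0.05 and a log2 fold change of 0.5. Fold changes used a prior count of 0.125. Each SE was the size of the log2 fold change divided by the square root of the quasi-likelihood F statistic. The difference of effects was an interaction term over all 8 libraries. CPM used library totals multiplied by TMM factors (0.902 to 1.05), and levels per kb the deposited gene length. Alternatives were DESeq2 1.42.0, other filters, thresholds and models, and leaving out each library. The procedure was tested on simulated data. Depth limits precision most for Tgfb2, at 0 to 8 counts, and floors cover counting error only. Genes named beyond the set were those called, up to 6 per list and comparison by size, except 1 gene that is not reported here. The genes and lists were chosen with earlier results of these data known.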

Additional observations from a re-analysis of the deposited data

Results flagged for a closer look

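The Smad3 libraries moved in opposite directions with αMARCO in the genotypes. Both αMARCO libraries lay above both controls in WT and below both controls in Unc93b1 3d/3d. Of all genes tested, 70.8% did not overlap between these groups in WT and 39% did not in the mutant. The difference of the effects was −0.61 on the log2 scale (SE 0.24), with an edgeR adjusted p of 0.318 over 16620 genes, so it did not pass. The opposite directions in the libraries carry no test of their own.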

How the results depend on the processing

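Of the log2 fold changes of the 9 genes recomputed under the alternatives, 429 kept direction and call, 15 passed where the reported fit did not, 6 lost a call and 27 changed sign; the causes were not tested. With all 8 libraries in 1 model, none of the 9 genes was called for αMARCO in WT (0; Tgfb3 at 1.23, edgeR adjusted p = 0.15, Tgfbr2 at −0.62, adjusted p = 0.112) or between the controls (0; Tgfb3 at 1.86, adjusted p = 0.0594), and all genes called were 164 and 364, pathway genes 2 and 6. That fit called 1 gene for αMARCO in the mutant and 108 genes, 5 of them in the pathway, for the mutant against WT under αMARCO. Without a fold threshold, 5487 genes and 37 pathway genes were called for αMARCO in WT. With a log2 threshold of 1 these were 1366 and 9, with 1 of the 9 genes (Tgfb3), and between the controls 951 and 11. DESeq2 called 60 genes and 4 pathway genes for αMARCO in the mutant, 215 and 9 for the mutant under αMARCO, and 208 genes for the difference of effects. Keeping every gene with 1 count gave 174 and 5, 107 and 4, and 152 in the same order.

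The replicate numbers are not stated to pair the libraries, and the correlations of same-numbered deviations were −0.08 to 0.14. With the replicate block the calls among the 9 genes stayed at 2, 0, 1, 0 and 0, while all genes called were 5 for αMARCO in the mutant and 97, with 4 pathway genes, for the mutant under αMARCO.

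Leaving out 1 library at a time gave 1940 (without WT αMARCO replicate 1) to 3951 genes and 1 to 3 of the 9 for αMARCO in WT. For the mutant controls it gave 0 to 1 of the 9. For αMARCO in the mutant it gave 1 to 5500 genes, 0 to 4 of the 9 and 0 to 31 pathway genes, for the mutant under αMARCO 17 to 6366, 0 to 2 and 0 to 43, and for the difference of effects 0 to 6440 genes and 0 to 3 of the 9. The highest of these counts in the last 3 comparisons came without mutant αMARCO replicate 1, and without replicate 2 they were 571, 1252 and 612 genes.

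No value that changed sign had been called. For αMARCO in WT, Tgfbi ranged from −0.067 to 0.18 and Tgfb1 from −0.20 to 0.020 when 1 library was left out. In the mutant Tgfb3 ranged from −0.87 to 0.25, Smad4 from −0.10 to 0.10 and Tgfb1 from −0.070 to 0.51. Between the controls Tgfbr1 ranged from −0.15 to 0.16, Tgfbr2 from −0.20 to 0.19, Smad7 from −0.046 to 0.18 and Tgfbi from −0.048 to 0.20. Under αMARCO Smad7 ranged from −0.29 to 0.16, Tgfbr2 from −0.068 to 0.094, Smad4 from −0.012 to 0.033 and Tgfb1 from −0.20 to 0.36. For the difference of effects Tgfbr2 ranged from −0.16 to 0.25 and Smad7 from −0.31 to 0.11. Tgfbr2 between the controls was −0.0032 with every gene with 1 count, −0.012 in the 8-library model and −0.0088 with the replicate block, and Tgfbr1 was −0.0023 in the 8-library model. With a mean CPM of at least 1, Smad4 under αMARCO was −0.00086 and Tgfbr2 in the difference of effects −0.014.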
